A study of Danio rerio with 6 samples.

Results

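Tubulin genes and the genes whose products fold, store, nucleate or track tubulin were followed in the tails of prpf31-/- zebrafish and their siblings. They were picked out by a pattern of gene symbols, set with earlier results of these data known: the alpha-, beta-, gamma-, delta- and epsilon-tubulins, the gamma-tubulin complex proteins (tubgcp), the stathmins (stmn), the tubulin cofactors A to E (tbca to tbce) and the end-binding proteins (mapre). These were 41 of the 36155 genes in the count files, 12 of them set apart as neural isotypes and 29 as general members. The neural isotypes were the tubulins tuba1a, tuba1c (listed under 2 gene identifiers), tubb2, tubb2b and tubb5, and the stathmins stmn1b, stmn2a, stmn2b, stmn3, stmn4 and stmn4l. A tail holds muscle, spinal cord, skin, vessels and blood, so each value below is an average over these tissues.

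The RNA came from embryos of the strain AB* at 36 hpf (hours post fertilization), bred from prpf31+/- parents. Heads were removed for genotyping, and the rest of each body, which holds the AGM and CHT (the aorta region where blood stem cells arise and the caudal tissue where they expand), was pooled by genotype. For each genotype 3 libraries were sequenced, labelled prpf31+/+ for the siblings and prpf31-/- for the mutants, which carry a CRISPR/Cas9 allele predicted to truncate Prpf31, a protein of the U4/U6 small nuclear RNP. The 6 libraries held 21809870 to 23789933 counts. As a check of the labels, prpf31 itself (ENSDARG00000095904) counted 844 to 854 in siblings and 475 to 576 in mutants, and fell by 0.66 on the log2 scale (SE 0.0842, edgeR quasi-likelihood adjusted p = 0.00104). Whether the replicates are separate clutches is not stated, and p-values therefore measure the spread between these libraries, which may be technical. The 21 muscle genes summed to between 70914 and 82841 CPM in every library, and the 21 head and eye genes to between 45.0 and 59.3 CPM. With no library of heads or whole embryos to compare, these sums do not by themselves identify the tissue.

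Microtubules are hollow polymers of alpha- and beta-tubulin dimers. New subunits pass through prefoldin and the chaperonin CCT to the cofactors, which join alpha to beta, and the gamma-tubulin ring complex seeds new filaments. Stathmins hold free dimers and favour disassembly, and EB proteins ride the growing plus end. Vertebrates carry many isotypes of both subunits, some made mostly in neurons, whose axons are packed with microtubules, and others made in all dividing cells. Cells also read the pool of free dimers: when it grows, tubulin mRNAs that are being translated are degraded.

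The alpha-tubulin mRNAs were the class that differed most in number, with 5 of 10 genes lower in prpf31-/- tails and none higher. Of the 37 members with enough counts to be tested, 8 were lower, 2 were higher and 27 were not called at an adjusted p of 0.05. Over all 21876 genes tested, 10.1% were called, 4.49% as lower and 5.58% as higher. The lower members were the alpha-tubulins tuba1a, tuba1c (ENSDARG00000045367), tuba8l, tuba8l3 and tuba8l4, the beta-tubulin tubb5, the stathmin stmn1b and the ring subunit tubgcp4. The higher members were the EB gene mapre1a and the stathmin stmn4l. None of these 10 changed by a log2 fold change of 1 or more. In RNA of whole tails, fewer cells of a type and less RNA per cell cannot be told apart.

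The median log2 fold change was −0.14 over the 37 members and −0.0048 over all genes tested. All 10 alpha-tubulins had a negative fold change, with a median of −0.39, and 4 of 5 beta-tubulins did, with a median of −0.21. The median was −0.03 over the gamma-tubulin group, −0.06 over the stathmins, −0.03 over the EB genes and 0.10 over the cofactors. Abundant genes were called more often than others: of 2956 genes with a mean of at least 50 CPM, 19.96% were called and 6.12% were lower, with a median log2 fold change of 0.08. Among them were 15 members, of which 7 were lower and 0 higher. The member counts moved with single libraries. Without prpf31-/- replicate 3 only 3 members were lower, without sibling replicate 1 or sibling replicate 2 there were 5, and the number of higher members fell to 1 without any one library other than prpf31-/- replicate 2.

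**Figure D1:**
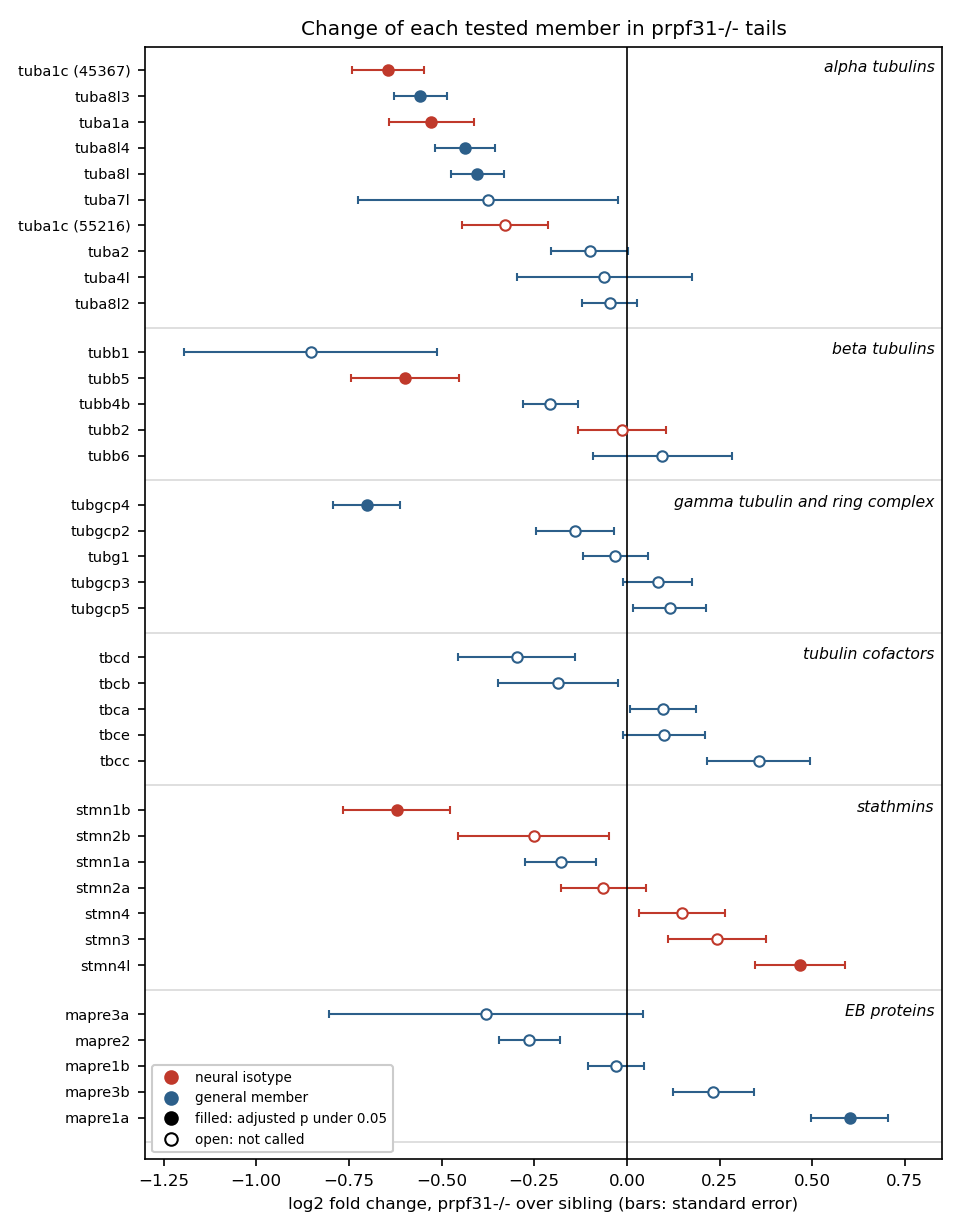
The log2 fold change of prpf31-/- over sibling tails (x axis) is plotted for each of the 37 tested members with its standard error (bars), grouped by role. Neural isotypes are red and general members blue, and filled points passed an adjusted p of 0.05. All 10 alpha-tubulins lie left of 0, from −0.64 to −0.05, while the cofactors and EB genes lie on both sides.

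The largest part of the alpha-tubulin mRNA came from tuba8l4 (chromosome 6, 6972953 to 6976107, minus strand; all coordinates GRCz11), which made up 32.0% of summed alpha-tubulin FPKM in siblings. Its level was 1004, 921 and 922 CPM (counts scaled by the TMM-adjusted library total, as parts per 1000000) in siblings and 747, 650.5 and 706 CPM in mutants. No mutant library reached the lowest sibling library, and the log2 fold change was −0.44 (SE 0.0808, edgeR adjusted p = 0.00860), or 26.1% less. The next most abundant alpha-tubulin, tuba8l (chromosome 8, 28345352 to 28349859), had 703, 743 and 739 CPM in siblings and 575, 532 and 544 CPM in mutants. The groups were again apart, and tuba8l fell by 0.40 on the log2 scale (SE 0.0713, edgeR adjusted p = 0.00670). Both calls were lost without prpf31-/- replicate 3, with an adjusted p of 0.0557 for tuba8l4 and 0.0566 for tuba8l and fold changes of −0.44 and −0.39.

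The third lower gene with a tuba8l name, tuba8l3 (chromosome 9, 7662638 to 7673856), had 127, 134 and 126 CPM in siblings and 92.4, 83.5 and 87.0 CPM in mutants. It fell by 0.56 (SE 0.0722, edgeR adjusted p = 0.00120), and the call stood in all 16 other fits, 10 with other settings and 6 with a library left out. The fourth, tuba8l2 (chromosome 1), had 273, 256 and 276 CPM in siblings and 274, 246 and 259 CPM in mutants, values that overlapped throughout (log2 fold change −0.05, edgeR adjusted p = 0.751). Of these 4 genes with close names, 3 were thus called lower and 1 was not, and the difference between them was not itself tested. tuba8l is named tuba5 in a second table of gene names, and the sequences of these genes were not compared.

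The neural alpha-tubulins lie side by side on chromosome 23, between 35690657 and 35716519. tuba1a, the isotype of growing and regenerating axons in fish, had 399, 343 and 291 CPM in siblings and 256, 217 and 244 CPM in mutants, and fell by 0.53 (SE 0.115, edgeR adjusted p = 0.0188). Its neighbour on the same strand was the tuba1c listed as ENSDARG00000045367 and named tuba1b in the second table of gene names. That gene had 209.8, 189.9 and 168 CPM in siblings and 132, 115 and 117 CPM in mutants. This was the strongest fall of any alpha-tubulin tested, −0.64 (SE 0.0961, edgeR adjusted p = 0.00267), and it was called in all 16 other fits.

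The other tuba1c (ENSDARG00000055216), on the opposite strand, had 342, 315 and 256 CPM in siblings and 262, 213 and 251 CPM in mutants. Sibling replicate 3 lay below mutant replicate 1, and the fold change of −0.33 (SE 0.116) did not pass, with an edgeR adjusted p of 0.108. In all of these 3 genes sibling replicate 3 was the lowest of its group and mutant replicate 2 the lowest of its own. Without sibling replicate 3 the second tuba1c passed, with −0.44 and an adjusted p of 0.0360, whereas tuba1a lost its call without sibling replicate 1 (0.0752), sibling replicate 2 (0.0625) or prpf31-/- replicate 3 (0.0736). The remaining alpha-tubulins were not called: tuba2 had a mean of 98.8 CPM in siblings and a log2 fold change of −0.10, and tuba4l and tuba7l had means under 4 CPM in both groups with fold changes of −0.06 and −0.37. Tubulin paralogs are similar enough to share reads, and how reads with several matches were counted is not stated, so the split of counts among these genes is uncertain.

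Over all genes tested 4.49% were lower and 5.58% higher, and among the 5 beta-tubulins tested 1 was lower and none was higher. That gene was tubb5 (chromosome 16, 10318893 to 10327620), a neural isotype in zebrafish, with 464, 410.1 and 309.7 CPM in siblings and 286, 222 and 274 CPM in mutants. The groups did not overlap, but the siblings spread widely, and tubb5 fell by 0.60 (SE 0.145, edgeR adjusted p = 0.0290). Its call was lost without sibling replicate 1 (adjusted p = 0.120), sibling replicate 2 (0.0943), prpf31-/- replicate 2 (0.0686) or prpf31-/- replicate 3 (0.0856), with fold changes between −0.75 and −0.47 over the 6 fits that each left out a library. DESeq2 called tubb5 (adjusted p = 0.000522), and limma on log2(FPKM + 1) did not (adjusted p = 0.0587).

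The most abundant beta-tubulin was tubb4b (chromosome 14), a widely made isotype that cilia also use in vertebrates, with 961, 941 and 884 CPM in siblings and 841, 781 and 791 CPM in mutants. Every mutant library lay below every sibling library, yet the log2 fold change of −0.21 (SE 0.0738) had an edgeR adjusted p of 0.111. It passed only without prpf31-/- replicate 1 (−0.25, adjusted p = 0.0469) and with upper-quartile factors (adjusted p = 0.0489). Non-overlap of this kind, with the mutants below, was found for 15.4% of all genes tested. tubb2, the other neural beta-tubulin with counts, had 43.7, 41.7 and 35.6 CPM in siblings and 45.7, 34.4 and 39.8 CPM in mutants, a fold change of −0.01 (SE 0.119, edgeR adjusted p = 0.961). Thus tubb5 and tubb2, both neural, gave different results in the same libraries, although the difference between them was not itself tested.

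The low-abundance isotypes were noisy. tubb1, the beta-tubulin of platelets in mammals, had 4.89, 3.68 and 4.77 CPM in siblings and 1.43, 3.99 and 1.93 CPM in mutants, with a fold change of −0.85 (SE 0.341, edgeR adjusted p = 0.152). Mutant replicate 2 alone lay within the sibling range, and without it tubb1 passed with −1.40 and an adjusted p of 0.0128. This was the only 1 of 16 other fits that called tubb1, and without prpf31-/- replicate 3 the edgeR adjusted p was 0.371. Of 11 tested erythroid and thrombocyte markers 3 were lower and 0 higher, against 4.49% and 5.58% of all genes tested. The 3 were the globin genes hbbe1.1, hbbe2 and hbae3, and no thrombocyte marker of the list was called. At the same threshold for unadjusted p, 3 were lower and 1 higher. The list summed to between 1958 and 2327 CPM in siblings and between 1363 and 1687 CPM in mutants. Of these sums, hbae3 alone had a mean of 1245 CPM in siblings and 817 CPM in mutants. The part of such cells in the tubb1 values was not tested. tubb6 had a fold change of 0.10 with means of 7.91 and 8.46 CPM. Its range overlaps eci2 on the other strand by 6407 bases, with a mean of 722 counts for eci2 and 182 for tubb6. The kit recorded no strand, so reads in the shared bases cannot be assigned to one gene.

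**Figure D2:**
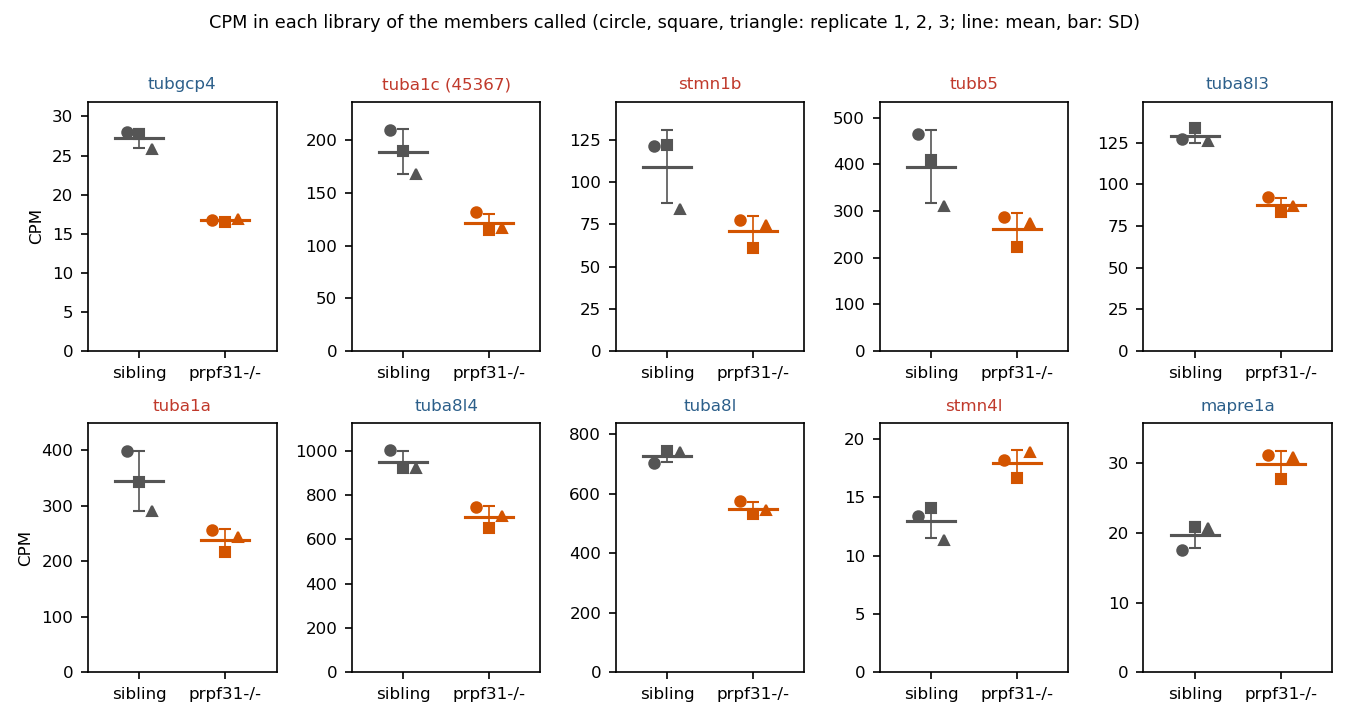
CPM (y axes, from 0) in each of the 3 sibling and 3 prpf31-/- libraries for the 10 members called, with the mean (line) and SD (bar); circles, squares and triangles are replicates 1, 2 and 3, neural genes have red titles and general genes blue. No panel shows an overlap of the groups, but the genes were chosen by their call. Over all genes tested, 15.4% had no overlap with the mutants below and 15.2% with the mutants above. tubgcp4 has the tightest mutant values at 16.5 to 16.9 CPM, and sibling replicate 3 lies far below the other siblings for tubb5 and stmn1b.

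FPKM corrects for gene length and lets isotypes be added up. Summed alpha-tubulin FPKM was 1803, 1725 and 1633 in siblings and 1391, 1220.6 and 1309 in mutants. Summed beta-tubulin FPKM was 751, 721 and 640.0 in siblings and 616, 549 and 575 in mutants. No mutant library overlapped a sibling library in either sum, and together the alpha and beta isotypes went from 2424 ± 142 to 1887 ± 119 FPKM (SD, n = 3 in each group), 22.2% less. Alpha-tubulin mRNA was 24.0% lower and beta-tubulin mRNA 17.6% lower, so the ratio of alpha to beta was 2.45 ± 0.0901 in siblings and 2.25 ± 0.0253 in mutants (SD, n = 3). These sums run over genes of which several were called above, so they describe the pool and were given no test.

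Within the pool, the neural and the general sums were each lower in every mutant library than in any sibling library. General isotypes summed to 1738 ± 36.2 FPKM in siblings and 1398 ± 71.6 in mutants, 19.5% less, and neural isotypes to 686 ± 105 and 488 ± 48.8, 28.9% less (SD, n = 3). The neural sum was 782, 703 and 573 FPKM in siblings against 531, 435 and 498 in mutants, so that the highest mutant library came close to the lowest sibling library. Neural isotypes made up 30.6%, 28.7% and 25.2% of the pool in siblings and 26.5%, 24.6% and 26.4% in mutants. These shares overlapped, and their mean difference was −2.36 percentage points, ranging from −3.85 to −1.14 when a library was left out. The largest single parts kept similar shares: tuba8l4 gave 32.0% of alpha-tubulin FPKM in siblings and 31.2% in mutants, and tubb4b gave 71.5% and 75.3% of beta-tubulin FPKM.

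**Figure D3:**
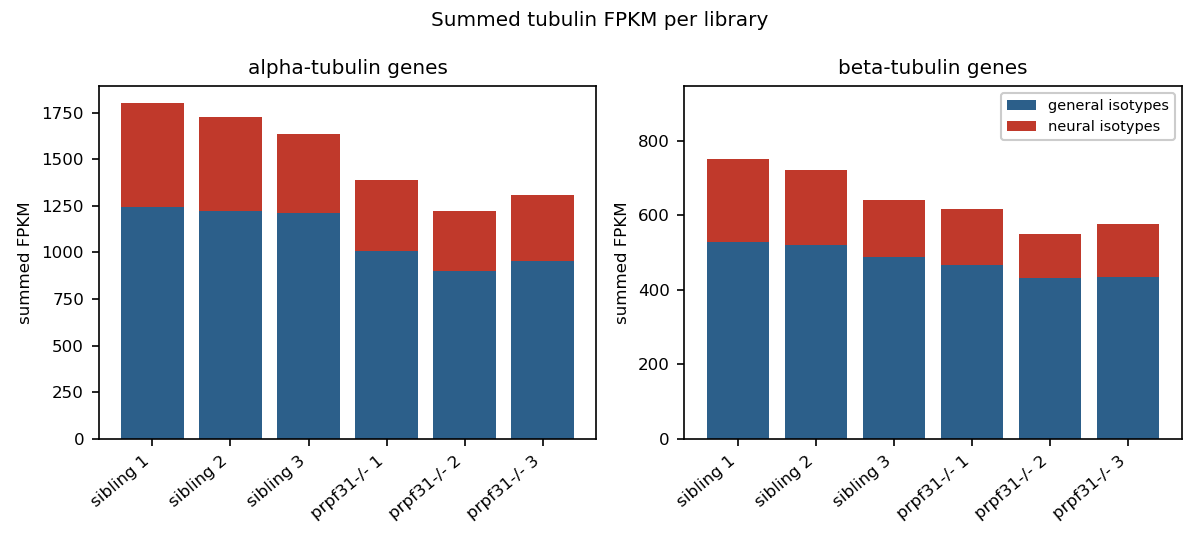
Summed FPKM (y axes, from 0) of the alpha-tubulin genes (left) and beta-tubulin genes (right) in each library, divided into general isotypes (blue) and neural isotypes (red). The sum of both classes is 2424 FPKM on average in siblings and 1887 in mutants, and both colours are shorter in the mutants.

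Of the 5 genes of gamma-tubulin and its ring complex 1 was lower and 0 higher, against 4.49% and 5.58% of all genes tested. tubgcp4 (chromosome 7, 52929964 to 52950123, minus strand), a subunit that in mammals takes a few defined places in the wall of the ring, had 27.97, 27.8 and 25.8 CPM in siblings and 16.8, 16.5 and 16.9 CPM in mutants. It fell by 0.70 on the log2 scale (SE 0.0917, edgeR adjusted p = 0.00125), or 38.6% less, the largest fall among the members called, and it was called in all 16 other fits. tubg1, gamma-tubulin itself, had 40.1, 38.1 and 36.5 CPM in siblings and 40.7, 36.6 and 34.9 CPM in mutants (log2 fold change −0.03, edgeR adjusted p = 0.872).

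The partners of gamma-tubulin in the small complex, tubgcp2 and tubgcp3, had fold changes of −0.14 (SE 0.106) and 0.08 (SE 0.0937), and tubgcp5 had 0.12 (SE 0.0986), none of them called. Set against these subunits within each library, tubgcp4 FPKM was 73.1% ± 2.96 of tubgcp2 in siblings and 49.4% ± 2.02 in mutants, and 107% ± 8.61 and 60.9% ± 3.95 of tubgcp5 (SD, n = 3). These ratios repeat the call of tubgcp4 in part and were not tested. The gene, with a mean of 491 counts, overlaps 2 neighbours on the other strand. They are tp53bp1, by 3206 bases and with a mean of 858 counts, and cdkn2aip, by 277 bases and with a mean of 203 counts. Their own log2 fold changes were −0.06 and −0.33, neither called, and with no strand recorded by the kit, reads in the shared bases cannot be assigned to one gene. delta-tubulin (tubd1) and the 2 identifiers of epsilon-tubulin (tube1), genes of centriole triplets, had at most 2 counts in any library and were not tested. The 2 tube1 entries overlap each other by 14634 bases, and tubb2b, at 0 counts in every library, lies wholly inside bcl2l16 on the other strand. A count of 0 for these cannot be read as a lack of mRNA.

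None of the 5 tubulin cofactors was called by edgeR, against 5.58% higher and 4.49% lower over all genes tested. At an unadjusted p of 0.05, 1 was higher and 0 lower. DESeq2 and limma also called none of them. tbca, which captures beta-tubulin, was the most abundant per length and had 52.9, 50.6 and 55.0 CPM in siblings and 62.8, 51.7 and 55.2 CPM in mutants (log2 fold change 0.10, SE 0.0896, edgeR adjusted p = 0.560). tbcb and tbce, which handle alpha-tubulin, had fold changes of −0.19 and 0.10, tbcd, which holds beta-tubulin, had −0.30, and tbcc, which completes the dimer, had 0.36 (SE 0.139, edgeR adjusted p = 0.143). Every mutant value of tbcc, from 12.0 to 16.1 CPM, lay above the sibling values of 10.4 to 10.996 CPM. Every mutant value of tbcd, from 6.94 to 9.68 CPM, lay below the sibling values of 10.5 to 11.1 CPM. Over all genes tested, 15.2% had no overlap with the mutants above and 15.4% with the mutants below. The range of tbcd overlaps znf750 on the other strand by 6088 bases, with a mean of 291.5 counts for znf750 and 218 for tbcd. Reads in these shared bases cannot be assigned to one gene.

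The level of tbce (chromosome 11, 44605727 to 44622478) was 14.7, 13.5 and 13.8 CPM in siblings and 16.1, 14.3 and 14.5 CPM in mutants, an edgeR adjusted p of 0.638. Its gene range overlaps rbm34 on the other strand by 5458 bases, with a mean of 505 counts for rbm34 and 323 for tbce. Reads in these shared bases cannot be assigned to one gene. tbce was also among the genes for which the study designed primers across spliced regions, and these are shown because a count per gene does not separate the splice forms they amplify; splicing was not analysed here. Each is written 5′ to 3′.
tbce alternative 5′ splice site, forward: tccggttgccggttctgca
tbce alternative 5′ splice site, reverse: aggtgaaatatcgcactccgtca
tbce skipped exon, forward: attttgtcggatgagcggaggg
tbce skipped exon, reverse: tctcaatgggcttcctctccaa

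The stathmins moved in both directions. Of 7 genes 1 was lower, stmn1b, and 1 was higher, stmn4l, both neural, against 4.49% and 5.58% of all genes tested. stmn1b (chromosome 16, 34523515 to 34527206), the stathmin with the highest FPKM, had 121, 122 and 84.3 CPM in siblings and 77.8, 60.9 and 74.3 CPM in mutants, and fell by 0.62 (SE 0.145, edgeR adjusted p = 0.0250). As for tubb5, sibling replicate 3 lay near the mutants, and the call was lost without sibling replicate 1 (adjusted p = 0.110), sibling replicate 2 (0.0948), prpf31-/- replicate 2 (0.0619) or prpf31-/- replicate 3 (0.0772). DESeq2 called stmn1b (adjusted p = 0.000598), and limma on log2(FPKM + 1) did not (adjusted p = 0.0539). Its range lies inside that of paqr7b on the same strand, which had a mean of 15.3 counts against 2012 for stmn1b. The general stathmin stmn1a, made in dividing cells, had 151, 166 and 153 CPM in siblings and 157, 123 and 136 CPM in mutants, a fold change of −0.18 (SE 0.0958, edgeR adjusted p = 0.288).

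stmn4l (chromosome 17, 12698532 to 12711195) had 13.4, 14.1 and 11.4 CPM in siblings and 18.2, 16.7 and 18.9 CPM in mutants, and rose by 0.47 (SE 0.121, edgeR adjusted p = 0.0377). The groups did not overlap, as for 15.2% of all genes tested with the mutants above. The call was near the threshold and was lost without sibling replicate 1 (0.103), sibling replicate 2 (0.0706), sibling replicate 3 (0.107), prpf31-/- replicate 1 (0.0629) or prpf31-/- replicate 3 (0.160). DESeq2 called stmn4l (adjusted p = 0.0211), and limma on log2(FPKM + 1) did not (adjusted p = 0.0503). The related stmn4, of the RB3 type in mammals, had 22.8, 22.01 and 17.9 CPM in siblings and 24.7, 21.5 and 23.4 CPM in mutants (log2 fold change 0.15, edgeR adjusted p = 0.481). Its range overlaps mcm3 and emilin1a on the other strand, with means of 3002 and 959 counts against 491 for stmn4. With no strand recorded, reads in the shared bases cannot be assigned to one gene.

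stmn2a and stmn2b are the fish counterparts of SCG10, a stathmin of growing axons in mammals. stmn2a (chromosome 16) had 89.7, 96.0 and 73.9 CPM in siblings and 93.1, 73.3 and 82.0 CPM in mutants, and stmn2b had 48.0, 44.0 and 29.8 CPM against 41.3, 24.8 and 36.3 CPM. Neither was called, with fold changes of −0.06 (SE 0.115) and −0.25 (SE 0.203). stmn3 had 18.7, 15.7 and 13.4 CPM in siblings and 17.9, 19.9 and 18.7 CPM in mutants, a fold change of 0.24 (SE 0.133, edgeR adjusted p = 0.294).

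Among the EB genes 1 of 5 rose and none fell, against 5.58% higher and 4.49% lower over all genes tested. mapre1a (chromosome 8, 23381892 to 23390368), 1 of 2 fish genes for EB1, had 17.6, 20.8 and 20.8 CPM in siblings and 31.2, 27.8 and 30.9 CPM in mutants. It rose by 0.60 on the log2 scale (SE 0.104, edgeR adjusted p = 0.00605), 51.7% more, and was called in all 16 other fits. The other EB1 gene, mapre1b, was the more abundant, with 284, 283 and 279 CPM in siblings and 292, 254 and 282 CPM in mutants (log2 fold change −0.03, SE 0.0745, edgeR adjusted p = 0.856). mapre1a FPKM was 8.66%, 10.3% and 10.4% of mapre1b in siblings and 14.9%, 15.2% and 15.2% in mutants. This ratio repeats the call of mapre1a in part and was not tested. The EB genes together summed to 102 ± 1.68 FPKM in siblings and 99.2 ± 2.66 in mutants (SD, n = 3). mapre2, at 50.1 and 41.7 CPM on average, had a fold change of −0.26 (SE 0.0829) and an edgeR adjusted p of 0.0758. mapre3a and mapre3b had −0.38 and 0.23, neither called. The groups did not overlap for mapre2, with the mutants below, or for mapre3b, with the mutants above. Over all genes tested, 15.4% had no overlap with the mutants below and 15.2% with the mutants above.

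Counted by isotype class, 4 of 11 tested neural members were lower and 1 higher, and 4 of 26 tested general members were lower and 1 higher, against 4.49% and 5.58% of all genes. The median log2 fold change was −0.25 over the neural and −0.12 over the general members, and the difference between the classes was not tested. Leaving out a library moved the neural median between −0.44 and −0.07 and the general median between −0.20 (without sibling replicate 3) and −0.03 (without prpf31-/- replicate 2). The number of lower neural members was 1 without sibling replicate 1, sibling replicate 2 or prpf31-/- replicate 3 and 2 without prpf31-/- replicate 2, and the number of lower general members was 2 without prpf31-/- replicate 3. The single higher neural gene, stmn4l, was lost as given above. Counting ENSDARG00000045367 as a general member, as its second name would have it, gave 3 lower neural and 5 lower general members.

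Inside the neural class the tubulins and the stathmins were counted apart, and no test set one against the other. Over the 5 tested neural tubulins the median was −0.53, with 3 lower and 0 higher, and over the 6 neural stathmins it was 0.04, with 1 lower and 1 higher. Over the 10 general alpha- and beta-tubulins the median was −0.29, with 3 lower, 0 higher and 7 not called. The neuron markers are given beside these values. Of 32 tested neuron markers 1 was lower, nova2 at −0.67, and 0 higher, with a median of −0.11, and only mnx1 was at 0 counts. For these counts and those of the tubulins and stathmins above, the shares over all genes tested were 4.49% lower and 5.58% higher. The markers summed to between 1296 and 1673 CPM in siblings and between 1257 and 1355 CPM in mutants. Their part in the neural tubulin result was not tested beyond these values.

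Set against the neuron markers within each library, neural tubulin FPKM was 1.35, 1.31 and 1.26 times the marker sum in siblings and 1.05, 0.969 and 1.04 times in mutants, with no overlap. The neural tubulin sum holds 3 genes called lower above, so this separation repeats those calls in part and was not tested. Neural stathmin FPKM was 0.271, 0.295 and 0.251 times the marker sum in siblings and 0.262, 0.229 and 0.254 times in mutants, with overlap. Sibling replicate 3 was the lowest sibling and mutant replicate 2 the lowest mutant in the neural tubulins, the neural stathmins and the neuron markers alike. The neuron markers elavl3, gap43 and snap25a, chosen after their values were seen, had log2 fold changes of −0.23, −0.19 and −0.03, none called.

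**Figure D4:**
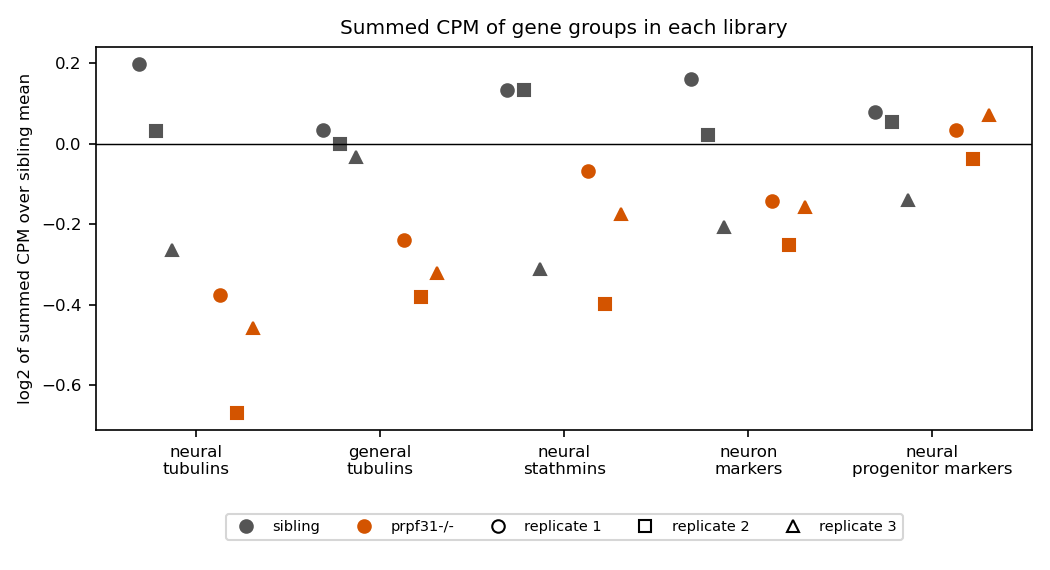
The log2 of summed CPM over the sibling mean (y axis) is shown for each library and gene group; grey is sibling, orange is prpf31-/-, and circle, square and triangle are replicates 1, 2 and 3. Neural tubulins lie at −0.38, −0.67 and −0.46 in the mutants and neuron markers at −0.14, −0.25 and −0.16, and sibling replicate 3 is low for every neural group.

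Among neural progenitor markers 3 of 23 were higher, the Notch ligand genes dld and dla and the transcription factor gene pax6a, and 3 were lower, including the glial filament gene gfap at −0.53. Their summed level was 1605 to 1866 CPM in siblings and 1723 to 1858 CPM in mutants. Of 18 dividing cell markers 2 were lower, top2a at −0.47 and bub1 at −0.50, and 0 higher, with sums of 2282 to 2315 CPM in siblings and 2104 to 2203 CPM in mutants. The bub1 call was lost without sibling replicate 1 or sibling replicate 3. Dividing cells need general tubulins for their spindles, and the part of these cells in the lower general tubulins was not tested. Of 21 muscle markers 2 were higher and 0 lower, and of 10 epidermis markers 0 were called by edgeR (2 higher at an unadjusted p of 0.05; 1 higher by DESeq2 and 0 by limma). Of 16 motile cilia markers 3 were higher and 0 lower, and of 14 head and eye markers 0 were higher and 3 lower. The shares over all genes tested were 5.58% higher and 4.49% lower.

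Of 13 tested prefoldin, CCT and related genes, which act upstream of the cofactors, 3 were higher and 0 lower, with a median of 0.24. At an unadjusted p of 0.05, 8 were higher and 0 lower. Over all genes tested, 5.58% were higher and 4.49% lower. Of 2956 genes with a mean of at least 50 CPM, which include cct4 and cct5, 409 were higher and 181 lower. No test set the list against these shares. The 3 called were pfdn6 at 0.47 (SE 0.0893, edgeR adjusted p = 0.00981), cct4 at 0.31 and cct5 at 0.30, subunits of prefoldin and of the chaperonin through which tubulin folds. cct4 and cct5 lost their calls without sibling replicate 1, 2 or 3 or prpf31-/- replicate 3, cct5 also without prpf31-/- replicate 1, and pfdn6, whose adjusted p reached 0.0538, without sibling replicate 1 or prpf31-/- replicate 3. Of 13 genes tied to the decay of tubulin mRNA, SCAPER and the CCR4-NOT subunits in mammals, 0 were called by edgeR, DESeq2 or limma (1 higher and 1 lower at an unadjusted p of 0.05); scaper had −0.13 and cnot11 −0.10. ttc5, whose product recognises nascent tubulin in mammals, had next to no counts and was not tested.

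Of 23 neuronal microtubule-binding genes 3 were lower and 0 higher, with a median of −0.32: map2 at −0.40, dpysl2b at −1.11 and dclk1a at −0.87. Of 22 genes of microtubule growth and severing 2 were lower, the severing enzyme gene fign at −1.12 and the plus-end factor gene clasp1a at −0.28. Of 22 tubulin-modifying genes 1 was higher, svbp at 0.48, and 2 were lower, the deglutamylase gene agbl5 at −0.85 and the glutamylase gene ttll1 at −0.67. Of 12 genes listed under gamma-tubulin recruitment 1 was higher, cep152 at 0.64, and 0 lower. Whether cep152 takes part in that recruitment was not tested. Over all genes tested, 5.58% were called higher and 4.49% lower, and no list was tested against these shares. Single libraries moved the list calls. Over the 6 microtubule lists 5 genes were higher and 7 lower with all libraries. The counts were 1 and 0 without sibling replicate 1, 2 and 0 without sibling replicate 2, and 2 and 8 without sibling replicate 3. They were 3 and 4 without prpf31-/- replicate 1, 8 and 2 without prpf31-/- replicate 2, and 0 and 1 without prpf31-/- replicate 3.

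Position bears on 2 of the lower members. prpf31 lies on chromosome 16, and so do tubb5, 21.8 Mb from it, stmn1b, 2.44 Mb from it, and stmn2a, 15.9 Mb from it. Of 891 tested genes on this chromosome 23.6% were called, 14.4% as lower. Embryos were sorted by their genotype at prpf31, so an effect of the mutation and of other alleles linked to it cannot be told apart for tubb5 and stmn1b. Of the neural members on other chromosomes 2 were lower, tuba1a and the tuba1c of ENSDARG00000045367.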

How the data were processed

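RNA of prpf31-/- and sibling tails was made into libraries with the NEBNext Ultra kit, which does not mark strand, and sequenced on an Illumina instrument. The authors deposited whole-number counts per gene and FPKM per gene for each library. The submitters' processing notes name CASAVA 1.8, HISAT2 2.0.5, GRCz11 and featureCounts 1.5.0-p3; the annotation release, strand setting and treatment of reads with several matches are not given in the sources used here. Recomputed from the counts and gene lengths, the deposited FPKM implied 1 constant total per library, 1.00 to 1.01 times the TMM-scaled count total.

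Differences in counts were assessed by edgeR 4.0.16 under R 4.3.3 (filterByExpr, TMM, quasi-likelihood F test of mutants against siblings, Benjamini-Hochberg adjustment over 21876 genes, threshold 0.05). The biological coefficient of variation was 15.5%. SE is the absolute log2 fold change divided by the square root of F. The procedure was tested on simulated data, where 57.1% of changes of log2 1 and 97.9% of changes of log2 2 were recovered. Smaller changes, the size of those in the members called, were not simulated. A gene not called may therefore still differ. Alternatives were DESeq2 1.42.0, upper-quartile or RLE factors, 50 counts in 3 libraries, no filter, a replicate block, limma 3.58.1 on log2(FPKM + 1) and log2(FPKM + 0.1) with FPKM of at least 1 in 3 libraries or without a filter, an absolute log2 fold change of 1, no chromosome 16, and each library left out. All 41 members matched the table of gene names by identifier.

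Members, the neural class and the 14 other gene lists were chosen with earlier results of these data known. Values per library are given for each member called, each neural isotype tested and the member of highest mean FPKM in each role. From other lists up to 4 called genes of smallest adjusted p were eligible to be named. Genes not called were named outside this rule: elavl3, gap43, snap25a, scaper, cnot11, ttc5, and mnx1 for its count of 0. Figures were drawn with matplotlib 3.10.9.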

Additional observations from a re-analysis of the deposited data

How the results depend on the processing

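Of 584 values of single members under other settings, 538 kept their direction and side of the threshold, 31 lost their call, 4 gained one and 11 changed sign. The sign changes all came from leaving out a library and touched members that were not called: mapre1b ranged from −0.076 to 0.027, tubg1 from −0.10 to 0.017, stmn2a from −0.17 to 0.018, tubb2 from −0.13 to 0.084, tuba4l from −0.18 to 0.12 and tubb6 from −0.064 to 0.23. DESeq2, RLE factors, no filter and 50 counts in 3 libraries called the same 10 members.

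Replicate numbers did not pair the samples (correlations of same-numbered deviations of −0.0735, −0.121 and −0.0414). With the replicate block 1 member was higher and 6 were lower, among them 0 higher and 3 lower neural members and 3 lower general members; the calls of tuba8l (adjusted p = 0.0537), stmn1b (0.0507) and stmn4l (0.108) were lost, and the other 7 members called stayed so. In the same fit 2 microtubule list genes were higher and 0 lower, and 5 cell markers were higher and 7 lower. limma on log2(FPKM + 1) gave 1 higher member, 0 higher and 2 lower neural members and 3 lower microtubule genes. With a pseudocount of 0.1 it gave 1, 0, 2 and 2. The calls of stmn1b, stmn4l and tubb5 were lost in both fits and without a filter, where that of tuba1a was lost too. Without a filter limma gave 1 higher and 5 lower members, 0 higher and 1 lower neural members, 2 higher and 0 lower microtubule genes, and 5 higher and 7 lower cell markers. Leaving out chromosome 16 removed tubb5 and stmn1b and left 2 lower neural members. A minimum of 1 for the absolute log2 fold change left 0 members in either class.

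With a library left out, members numbered 1 to 2 higher and 3 to 9 lower, neural members 0 to 1 and 1 to 5, and general members 1 and 2 to 5. Microtubule genes numbered 0 to 8 in each direction, and cell markers 5 to 9 higher and 6 to 18 lower. The general median ran from −0.20 to −0.033, the neural median from −0.44 to −0.07, the neural share difference from −3.85 to −1.14 points and prpf31 from −0.71 to −0.64. The members tubb1, tuba4l, tuba7l and mapre3a, with means under 5 CPM, had standard errors of 0.236 to 0.425 on the log2 scale; the part of depth in these was not tested.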
